A study of Saccharomyces cerevisiae and Saccharomyces cerevisiae x Saccharomyces paradoxus with 20 samples.

Results

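Nucleosome-free regions (NFRs) near the chromosome ends of yeast were examined, that is, the accessible stretches upstream of start codons that the study listed and counted. An NFR was taken as subtelomeric where its listed position began within 50000 bp of the left end of a chromosome, or ended within 50000 bp of the last feature listed for that chromosome. This rule used position alone and took 405 of the 3498 listed NFRs, or 11.6%, leaving 3093 others for comparison. All 16 chromosomes and all 32 chromosome ends had members, from 4 to 22 per end with a median of 12.

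FAIRE-Seq, which recovers DNA that formaldehyde does not hold to protein, and RNA-Seq were done on 2 biological replicates each of 3 haploid strains and 2 diploid hybrids, 20 samples in all. The haploids were UWOPS05_217_3, a wild isolate of Saccharomyces cerevisiae, DBVPG1373, a wine strain of the same species, and CBS432 of the sister species Saccharomyces paradoxus, which the sample labels list under S. cerevisiae. Each S. cerevisiae strain was crossed to CBS432 to give the hybrids UWOPS05_217_3-CBS432 and DBVPG1373-CBS432, and in a hybrid the reads of each allele were counted separately. Every culture was grown in rich medium (YEPD) to mid-log phase with no other treatment, and each group is 1 strain or 1 cross, so the values describe these strains and not the species as a whole.

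Subtelomeres lie next to the telomere repeats and hold few essential genes. They carry many gene families for sugar uptake, cell adhesion, metal uptake and stress, whose copies are exchanged between chromosome ends and gained or lost between strains. In S. cerevisiae the Sir proteins spread inward from the telomeres and silence some nearby genes, while an NFR is the open stretch over a promoter where transcription factors bind.

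FAIRE totals over all NFRs were 2561228 to 4198250 counts for haploid libraries and 1339393 to 2036883 for 1 allele of a hybrid library, and RNA totals in the UWOPS05_217_3 cross were 36188856 to 106845771. Between FAIRE replicates, chi-square divided by its degrees of freedom was 18.2 to 80.1 for the subtelomeric NFRs and 20.1 to 85.1 for the others. Independent counts would give 1. Since 1 read can enter the counts at several sites, how far replicates differed beyond counting noise was not tested. The ploidy in the labels was checked with haploid-specific genes, which diploid a/alpha cells repress. Of 10 listed, 6 were in the RNA tables, and all 6 were higher in each haploid library than in either UWOPS05_217_3-CBS432 library. Below, a level is given in CPM, the counts in an NFR scaled to a library total of 1000000 over all NFRs, with both alleles of a hybrid together as the total, and all differences are log2 ratios.

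The subtelomeric NFRs were like the others in size and gene content and had somewhat lower FAIRE levels per kb. Their median width was 230 bp against 234 bp, with a range of 2 to 1214 bp. Of the 405, 387 (95.6%) had the start of a gene of the R64 gene table within 300 bp, against 94.8% of the others. Per kb of NFR, the median level of the subtelomeric NFRs was below that of the others in all 16 tables, with a ratio of the medians between 0.799 and 0.918. The tables are not independent, since each CBS432 haploid library was counted for each cross and each hybrid library for each allele. These levels were not scaled by the number of counted sites in an NFR, and its part in the difference was not tested. Each value averages over a whole culture, so an NFR open in fewer cells and one less open in each cell cannot be told apart. The counts in subtelomeric NFRs made up 10.4% to 11.5% of the total in every table. The mean share was 11.1% ± 0.362 (SD, n = 2) in UWOPS05_217_3, 10.8% ± 0.0285 in DBVPG1373 and 10.9% ± 0.0791 in CBS432. None of the 3 differences between haploids passed an exact two-sided permutation test, where p was 0.667 for UWOPS05_217_3 against CBS432 and 0.333 for the other pairs, with adjusted p of 0.667 and 0.5. With 2 against 2 libraries, 0.333 is the smallest p that this test can give.

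Several families that S. cerevisiae keeps at its chromosome ends had no subtelomeric NFR in the list, 5 of the 13 examined. Of the 111 genes in these 13 lists, 106 are named in the R64 gene table and 22 had a subtelomeric NFR. No member NFR lay upstream of the 24 seripauperin (PAU) genes, the 12 COS genes, the thiamine and vitamin B6 genes, the arsenic resistance genes or the silent mating cassettes, so the silenced HML and HMR loci could not be examined. Outside the members, 2 seripauperin genes and 1 COS gene had an NFR. The authors kept NFRs that aligned reciprocally between genomes, and also filtered on where simulated reads mapped and on the ratio of genomic DNA reads. Whether these steps removed these families was not tested.

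UWOPS05_217_3 and CBS432 haploids differed at 92 of the 405 subtelomeric NFRs (22.7%) by edgeR's quasi-likelihood test at an adjusted p under 0.05, against 20.4% of all NFRs tested. Of these, 43 were higher in UWOPS05_217_3 (10.6% of the members, against 10.8% of all NFRs) and 49 were higher in CBS432 (12.1%, against 9.58%). The median absolute log2 difference was 0.55 over the members and 0.51 over the others, so the subtelomeric share of calls was near the background. Without UWOPS05_217_3 replicate 2 the count was 55, and without CBS432 replicate 2 it was 58.

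Among called NFRs with a mean of at least 50 counts, the one with the largest excess in UWOPS05_217_3 lay upstream of FLO1, a cell wall flocculin that binds mannose on neighboring cells, on chromosome I from 202731 to 203189. It held 3121 and 5556 CPM in the UWOPS05_217_3 replicates, 323 and 324 in CBS432, and 263 and 296 in DBVPG1373. The UWOPS05_217_3 values were thus well apart from all others, with a log2 difference from CBS432 of 3.79 ± 0.54 (SE) and an edgeR adjusted p of 4.55e-05. FLO1 shares sequence with other flocculin genes, and reads of near-identical copies could have been assigned to it or lost.

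A second NFR with a higher level in S. cerevisiae was that of VAN1, a subunit of a Golgi mannosyltransferase, on chromosome XIII from 41775 to 42045. Its levels were 323 and 241 CPM in UWOPS05_217_3 and 266 and 244 in DBVPG1373, against 64.04 and 16.6 in CBS432, a log2 difference of 2.85 ± 0.45 for UWOPS05_217_3 (adjusted p = 0.000156). The NFR of YHR210C, on chromosome VIII from 521744 to 521991 and next to FLO5, had the third largest excess. It held 408 and 457 CPM in UWOPS05_217_3 and 81.3 and 71.2 in CBS432, a log2 difference of 2.53 ± 0.32 (adjusted p = 1.08e-05). In both NFRs the 2 strains did not overlap, which the rule for naming an NFR required.

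In the other direction, the largest difference was at an NFR of 54 bp between the divergent genes GPI16, a subunit of the GPI transamidase, and PTH1, a mitochondrial peptidyl-tRNA hydrolase, on chromosome VIII from 483804 to 483858. It held 2.49 and 4.76 CPM in UWOPS05_217_3 against 63.7 and 45.6 in CBS432, a log2 difference of -3.81 ± 0.65 (adjusted p = 0.00027). The raw counts behind these levels were 7 and 20 in UWOPS05_217_3, so this value rests on few reads. At PCK1, the gluconeogenic enzyme phosphoenolpyruvate carboxykinase, the NFR on chromosome XI from 630932 to 631164 held 24.2 and 24.5 CPM in UWOPS05_217_3. CBS432 had 245 and 116 there, a log2 difference of -2.84 ± 0.44 (adjusted p = 0.000133). An NFR of YJR154W, on chromosome X from 725425 to 725531, had a log2 difference of -2.70 ± 0.66 (adjusted p = 0.00578), which no longer passed without UWOPS05_217_3 replicate 2 (adjusted p = 0.0681) or CBS432 replicate 2 (adjusted p = 0.0905).

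**Figure D1:**
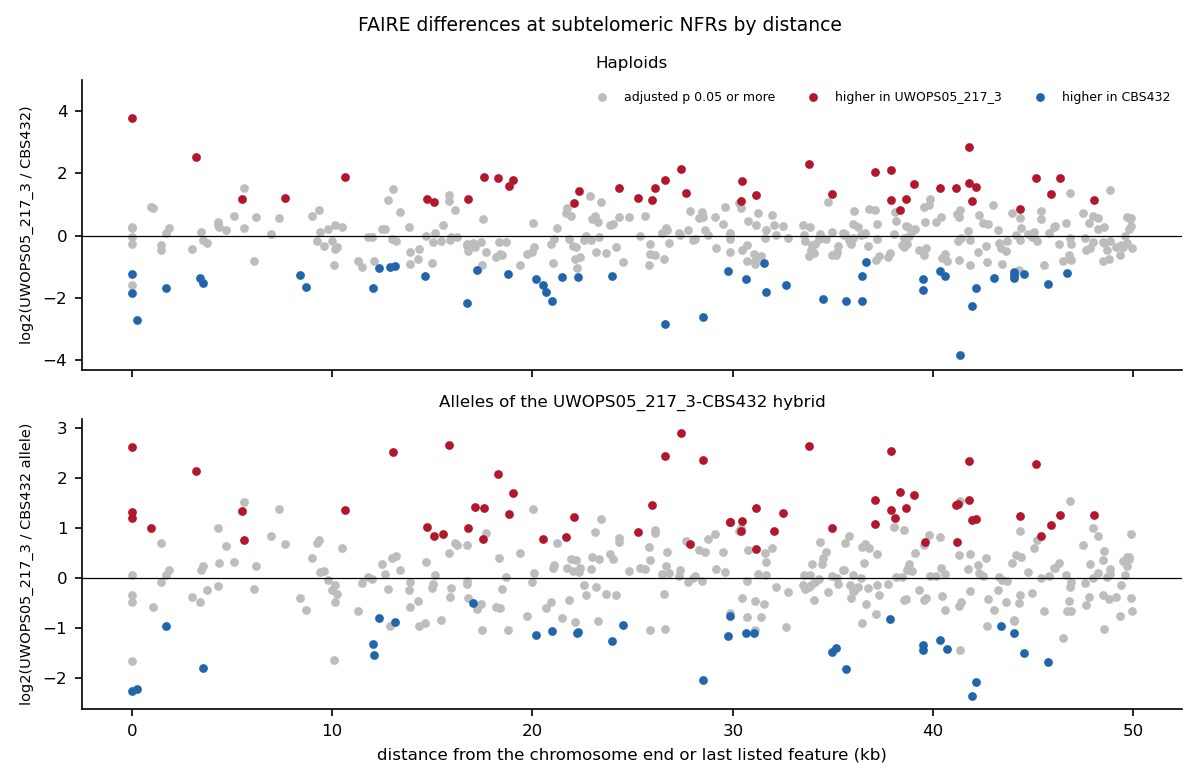
Log2 difference in FAIRE counts (y axis) of each subtelomeric NFR against its distance in kb from the left chromosome end or from the last listed feature (x axis), for haploids (top) and for the alleles of the UWOPS05_217_3-CBS432 hybrid (bottom), where each point is 1 NFR, colored where edgeR's adjusted p was under 0.05, and NFRs with 3 or fewer counts in either group are not drawn. Called NFRs of both directions lie at all distances, 92 among the haploids and 96 between the alleles (of which AQY3 is not drawn), and FLO1 is the point at 3.79 and distance 0 in the top panel.

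The share called changed little with distance from the left end or, on right arms, from the last listed feature. Both are called the end below, and on right arms the true chromosome end can lie further out. Among haploids of UWOPS05_217_3 and CBS432, 12 of 46 NFRs (26.1%) were called within 10 kb of an end, 16 of 68 (23.5%) from 10 to 20 kb, 19 of 82 (23.2%) from 20 to 30 kb, 22 of 105 (21.0%) from 30 to 40 kb and 23 of 104 (22.1%) from 40 to 50 kb. In the next 10 kb inward, outside the limit, 14 of 89 NFRs (15.7%) were called. These shares were not tested against each other. By chromosome end, the right end of chromosome VIII had the most calls, 8 of 22 NFRs, but also the most members. A larger share was called at the right end of I, 5 of 9, and the left end of V, 6 of 12, among others. The left ends of I and II and the right end of XIV had none.

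In the UWOPS05_217_3-CBS432 hybrid both alleles share 1 nucleus, so a difference between them is a cis effect. Here 96 subtelomeric NFRs (23.7%) differed between alleles, against 24.8% of all NFRs. The UWOPS05_217_3 allele was higher at 62 (15.3%, against 15.1% of all) and the CBS432 allele at 34 (8.40%, against 9.69%). The median log2 ratio over all NFRs was 0.09 toward the S. cerevisiae allele with 1 library size for both alleles, and the members' median was 0.08.

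Most parental differences recurred between the alleles, in libraries that share no sample with the haploid ones, and this held for the other NFRs as well. Of the 92 members called between UWOPS05_217_3 and CBS432 haploids, 88 (95.7%) had the same direction between the alleles, and 61 (66.3%) were also called there, which was 63.5% of the 96 called between alleles. Of the 620 others called between the haploids, 614 (99.0%) had the same direction and 409 (66.0%) were called between the alleles. Among these 61, 60 agreed in direction, and the exception was the NFR of ZRT1 described below. Over 395 members with more than 3 counts in every group, the Pearson correlation of the 2 log2 ratios was 0.786 and Spearman's rho was 0.761. For the others the values were 0.805 and 0.801 over 3067 NFRs. NFRs are not independent replicates, and both measures share the same counted sites.

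The FLO1 allele of UWOPS05_217_3 kept its excess in the hybrid, with 558 and 1073 CPM against 97.3 and 162 for the CBS432 allele, a log2 ratio of 2.62 ± 0.22 (adjusted p = 4.9e-27). With a mean of at least 50 counts, the largest other excesses of the UWOPS05_217_3 allele were at SCH9, a nutrient-responsive protein kinase, on chromosome VIII from 509297 to 509368, and between BUD14 and ADE1 on chromosome I from 169037 to 169408. BUD14 acts in bud-site selection and formin control, and ADE1 is an enzyme of purine synthesis. The SCH9 NFR held 50.5 and 24.2 CPM on the UWOPS05_217_3 allele and 7.54 and 3.97 on the CBS432 allele, a log2 ratio of 2.67 ± 0.61 (adjusted p = 0.000176). At BUD14 and ADE1 the UWOPS05_217_3 allele held 76.6 and 56.7 against 16.6 and 6.14, a log2 ratio of 2.66 ± 0.51 (adjusted p = 6.21e-06).

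On the CBS432 side, 2 NFRs next to YJR154W on chromosome X stood out, the one above and a second from 725737 to 725805, with log2 ratios of -2.21 ± 0.62 (adjusted p = 0.00332) and -2.25 ± 0.66 (adjusted p = 0.00485). They lie next to each other upstream of 1 gene, so they are not separate evidence. At YIR016W, on chromosome IX from 382313 to 382432, the UWOPS05_217_3 allele held 44.0 and 13.7 CPM and the CBS432 allele 112 and 100.4, a log2 ratio of -2.06 ± 0.43 (adjusted p = 4.03e-05).

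DBVPG1373 and CBS432 haploids differed at 42 subtelomeric NFRs (10.4%), against 8.23% of all NFRs. DBVPG1373 was higher at 17 (4.20%, against 4.26% of all) and CBS432 at 25 (6.17%, against 3.97%). This count rested on single libraries, since leaving out DBVPG1373 replicate 1 gave 81, and leaving out CBS432 replicate 1 or 2 gave 16 or 23. This comparison and the one of UWOPS05_217_3 share the CBS432 libraries and are not independent.

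The NFR of SIT1, a siderophore transporter, on chromosome V from 27421 to 27481, held 90.7 and 53.1 CPM in DBVPG1373, 43.0 and 41.0 in UWOPS05_217_3, and 10.5 and 8.89 in CBS432. Its log2 difference from CBS432 for DBVPG1373 was 2.93 ± 0.63 (adjusted p = 0.013), which did not pass without CBS432 replicate 1 (adjusted p = 0.0737) or 2 (adjusted p = 0.0524). VAN1 had a log2 difference of 2.90 ± 0.52 (adjusted p = 0.00538) in this comparison too. At PIP2, a transcription factor for fatty acid use and peroxisomes, the NFR on chromosome XV from 1023154 to 1023400 held 164 and 248 CPM in DBVPG1373 and 32.9 and 65.7 in CBS432. The log2 difference was 2.13 ± 0.49 (adjusted p = 0.0178), and 1.67 without CBS432 replicate 1 (adjusted p = 0.131). The largest excesses of CBS432 were at NFRs with no count in DBVPG1373, which are described with the comparison within S. cerevisiae.

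Between the alleles of the DBVPG1373-CBS432 hybrid, 118 subtelomeric NFRs (29.1%) differed, against 29.8% of all NFRs. The DBVPG1373 allele was higher at 64 (15.8%, against 17.5% of all) and the CBS432 allele at 54 (13.3%, against 12.3%). With TMM scaling, which centers the alleles, the split was 56 and 65. Of the 42 members called between the haploids, 40 had the same direction between alleles, and 35 were also called, which is 83.3% of the 42 and 29.7% of the 118. Of the 246 others called, 245 had the same direction and 209 (85.0%) were also called.

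The largest excess of the DBVPG1373 allele was at DFP1, a member of the DUP240 family of membrane proteins, on chromosome I from 179976 to 180083. This allele held 60.6 and 56.5 CPM against 4.84 and 9.41 for the CBS432 allele, a log2 ratio of 3.08 ± 0.47 (adjusted p = 0.00113). DUP240 genes have close copies in tandem, so reads may have been split among them. VAN1 followed with 2.71 ± 0.33 (adjusted p = 0.000318) and YHR210C with 2.31 ± 0.32 (adjusted p = 0.000645). Both had log2 ratios above 2 in the other hybrid too, 2.34 ± 0.40 for VAN1 (adjusted p = 4.09e-07) and 2.15 ± 0.32 for YHR210C (adjusted p = 2.53e-09).

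The hybrids share no sample with each other, and their cis effects were correlated over the subtelomeric NFRs about as over the others. Of the 96 members called in the UWOPS05_217_3-CBS432 hybrid, 64 (66.7%) were called in the DBVPG1373-CBS432 hybrid, or 54.2% of its 118, and 61 of the 64 agreed in direction. For the others the shares called in both were 67.0% and 55.8%, close to those of the members, and 514 of 516 agreed in direction. Over 391 members with more than 3 counts in every group, the Pearson correlation was 0.715 and Spearman's rho 0.732, against 0.749 and 0.752 over 3063 other NFRs. Both crosses have the CBS432 allele in common.

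**Figure D2:**
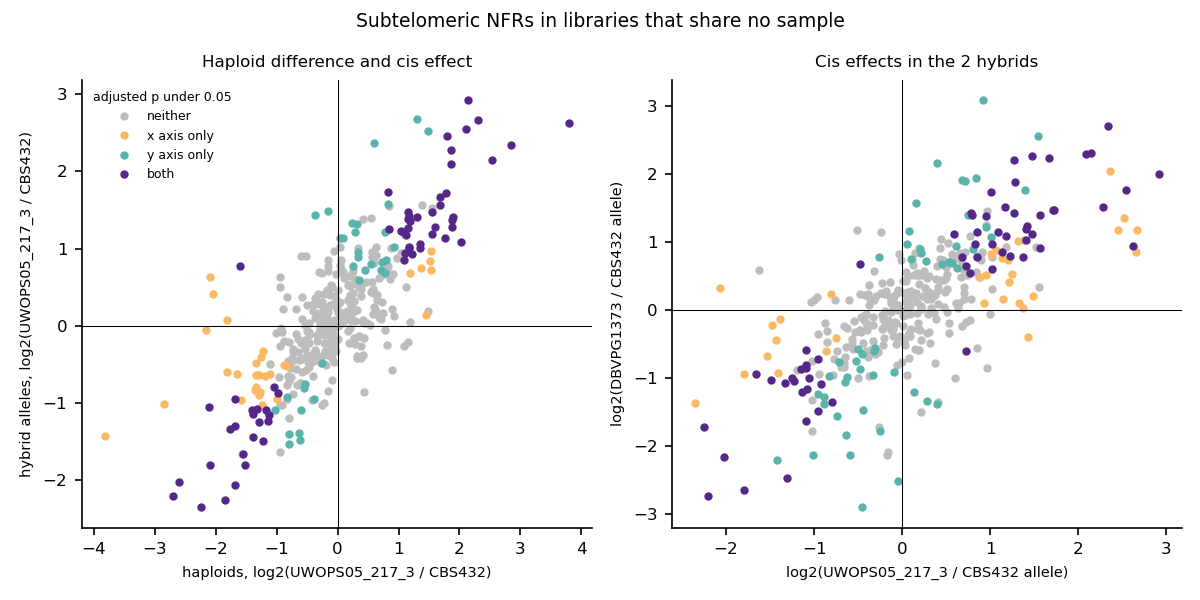
Log2 ratios of FAIRE counts at subtelomeric NFRs in libraries that share no sample, with the haploid difference (x axis) against the allele ratio in the UWOPS05_217_3-CBS432 hybrid (y axis) at left, and the allele ratios of the 2 hybrids at right, where each point is 1 NFR, colored by the test it passed at an adjusted p under 0.05, and NFRs with 3 or fewer counts in a group are not drawn. In the left plot, 60 of the 61 NFRs called in both measures lie in the quadrants of equal sign.

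Within S. cerevisiae, UWOPS05_217_3 and DBVPG1373 haploids differed at 3 subtelomeric NFRs (0.741%), against 0.114% of all NFRs, so 3 of the 4 NFRs called in the whole list were subtelomeric. At an unadjusted p under 0.05 there were 32 members (7.90%) and 124 others (4.01%). With DESeq2, 10 members were called of 19 in all. Leaving out 1 library at a time gave between 5 and 19 members, and each such set kept the 3. The members' share of all calls was lower then, down to 19 of 105 (18.1%) without DBVPG1373 replicate 1. The median absolute log2 difference over all members fell with distance from the end, from 0.43 within 10 kb through 0.34, 0.32 and 0.29 to 0.19 from 40 to 50 kb, and it was 0.24 in the next 10 kb inward. The median of the mean counts was lower near the ends too, 376 within 10 kb against 508 from 40 to 50 kb, and its part in the difference was not tested.

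All 3 had no count at all in DBVPG1373. The NFR of MAL13, an activator of the maltose genes, on chromosome VII from 1070179 to 1070306, held 269.7 and 212 CPM in UWOPS05_217_3, 163 and 54.9 in CBS432, and 0 in both DBVPG1373 haploids. That is at least 439-fold lower than in UWOPS05_217_3, taking 3 counts over both DBVPG1373 libraries as the limit that a count of 0 allows, with an edgeR adjusted p of 0.00497. The NFR of YJL218W, which resembles bacterial acetyltransferases, on chromosome X from 21836 to 21979, held 80.8 and 116 CPM in UWOPS05_217_3 and 113 and 102 in CBS432. It was at least 190-fold lower in DBVPG1373 (adjusted p = 0.0212). An NFR of 72 bp on chromosome VI from 15426 to 15498, between THI5 and AGP3 and with no gene start within 300 bp, held 39.5 and 47.6 CPM in UWOPS05_217_3. There DBVPG1373 was at least 82.9-fold lower (adjusted p = 0.0474).

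The DBVPG1373 alleles of these NFRs also had 0 counts in both libraries of the hybrid, while the CBS432 alleles of the same libraries were read. At MAL13 the CBS432 allele had 149 and 145 counts, at YJL218W 253 and 193, and at the chromosome VI NFR 163 and 138. The allele ratios were called in this hybrid with adjusted p of 0.000209, 0.000114 and 0.0002, the last of which was 0.0544 with DESeq2. One more member had the same pattern, the NFR of MAL11, an alpha-glucoside permease, on chromosome VII from 1075771 to 1075823. It held 0 counts in all 4 DBVPG1373 columns, 81 and 26 in UWOPS05_217_3 and 179 and 92 in CBS432. It was called against CBS432 (at least 96.3-fold lower, adjusted p = 0.00135) and not against UWOPS05_217_3 (adjusted p = 0.416).

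With a mean of at least 50 counts in both other strains and 0 in DBVPG1373, there were thus 4 of 405 members (0.988%) and 1 of 3093 others (0.0323%). No NFR had this pattern for UWOPS05_217_3 or CBS432. The authors' reciprocal alignment filter was meant to take out deletions between the species, so the list could have lost such NFRs before counting. These numbers therefore cannot rank the strains. MAL13 and MAL11 are the 2 outermost NFRs listed on the right arm of chromosome VII. The next one inward, at ZUO1 from 1063322, held 442 and 258 counts in DBVPG1373, so the run of zeros did not reach it. On chromosome X the next NFR inward, of OPT1, held 845 and 1150 counts in DBVPG1373. Whether sequence is missing from the strain, diverged or left out of the counted sites was not tested.

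**Figure D3:**
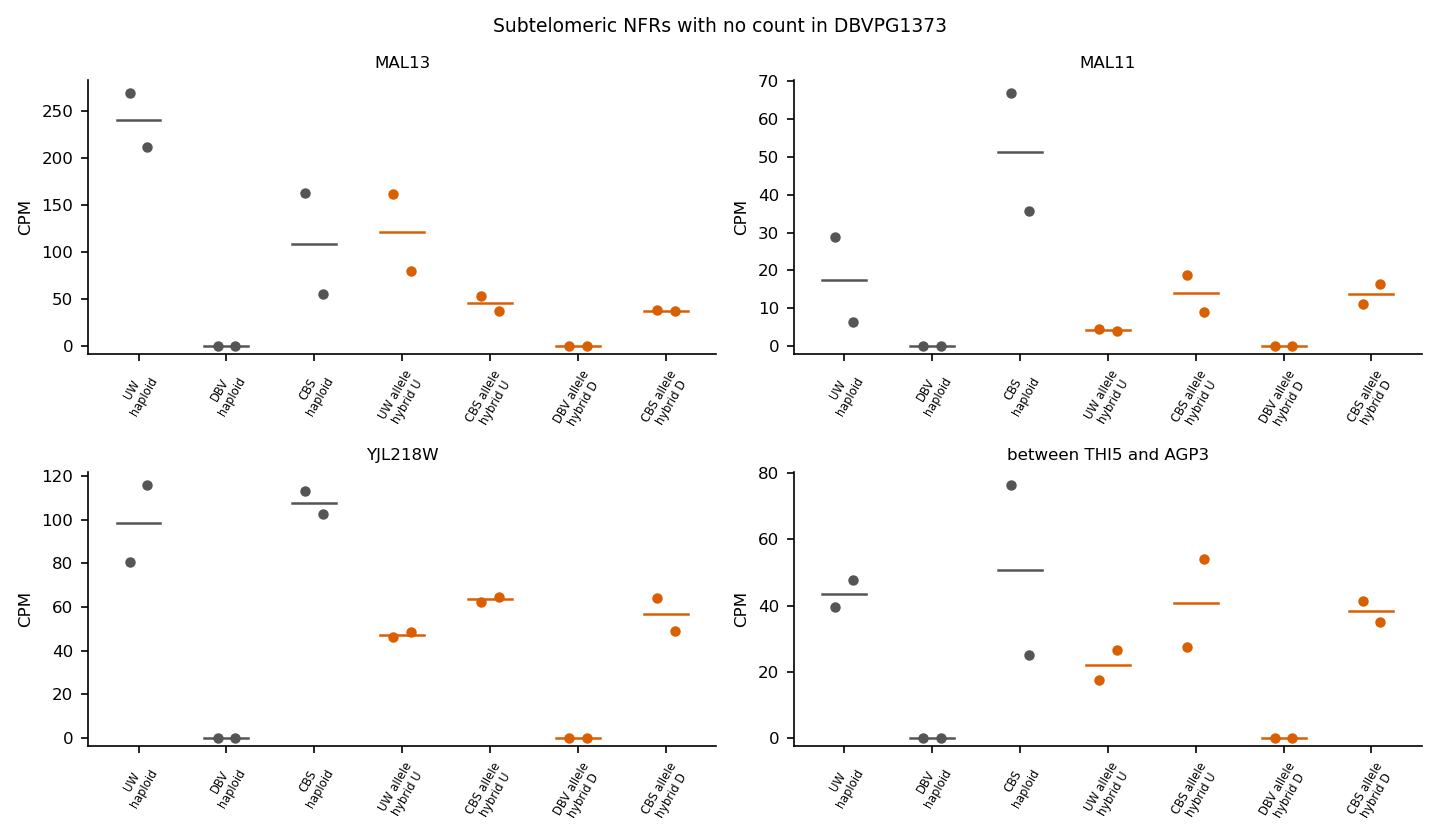
FAIRE CPM (y axis, from 0) at the 4 subtelomeric NFRs with no count in DBVPG1373, by haploid strain (gray) and by allele of the hybrids (orange), where UW, DBV and CBS shorten the strain names, U is the UWOPS05_217_3-CBS432 hybrid and D the DBVPG1373-CBS432 hybrid, with points for the 2 replicates of each group and a line at their mean. The DBVPG1373 haploid and the DBVPG1373 allele are at 0 in every library of all 4 plots.

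Zeros of another kind were found on the left arm of chromosome XIV. The 5 NFRs listed from 28443 to 37573, next to PFA3, FIG4, LEM3 and YNL320W, had 0 counts in every table of the UWOPS05_217_3 cross, CBS432 included. Of these, 3 had counts in the DBVPG1373 cross, as at YNL320W, with 32 and 60 in DBVPG1373 and 49 and 49 in CBS432, and no NFR outside the subtelomeres had this pattern. Since CBS432 itself was at 0 at the sites of 1 cross and not of the other, these zeros cannot be read as a difference between strains. The other 2 were among the 5 members at 0 in all tables, against 19 of the others.

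The cis effects of the hybrids differed from each other at 9 subtelomeric NFRs (2.22%), against 0.429% of all NFRs, and these were 9 of the 15 called. At an unadjusted p under 0.05 the shares were 10.1% of members and 7.79% of others. All 9 had the same direction in the comparison of UWOPS05_217_3 with DBVPG1373 haploids, which uses other libraries, and 3 were called there. The 6 other NFRs called also had the same direction there, and 1 of them was called. Without either UWOPS05_217_3-CBS432 library 2 members remained called, MAL13 and YJL218W, and without DBVPG1373-CBS432 replicate 2 there were 5.

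Of the 9, 3 are the NFRs at 0 in DBVPG1373, MAL13 (adjusted p = 1.49e-07), YJL218W (adjusted p = 1.78e-06) and the one between THI5 and AGP3 (adjusted p = 0.000113). FLO1 was another, with a difference of the log2 ratios of 1.69 ± 0.32 (adjusted p = 0.00723). Its DBVPG1373 allele held 172 and 128 CPM against 66.2 and 90.3 for the CBS432 allele, a smaller excess than that of the UWOPS05_217_3 allele.

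At AQY3, a channel protein of the aquaglyceroporin family, the 64 bp NFR on chromosome VI from 22886 to 22950 had 104 and 80 counts on the UWOPS05_217_3 allele and 0 and 2 on the CBS432 allele. The ratio of these sums was 92.0, with an exact 95% interval of 25.1 to 765 that covers counting error only and takes counts as independent. In the DBVPG1373-CBS432 hybrid the counts were 12 and 6 against 33 and 12, and the difference between the hybrids was called (adjusted p = 0.00118). The CBS432 haploids held 61 and 37 counts at the same sites, but haploid reads were mapped to 1 genome and hybrid reads to both together, and the part of this step was not tested.

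The other 4 were the NFRs of RPS12, YHL041W, RPL8A and YIR016W. At RPS12, a protein of the small ribosomal subunit, on chromosome XV from 1028504 to 1028934, the UWOPS05_217_3 allele held 505 and 520 CPM against 336 and 285, while the DBVPG1373 allele held 243 and 195 against 330 and 335 for CBS432. The cis effects were thus of opposite sign, 0.73 ± 0.22 (adjusted p = 0.00633) and -0.61 ± 0.18 (adjusted p = 0.0296), and differed by 1.34 ± 0.28 (adjusted p = 0.017). YHL041W, on chromosome VIII from 17010 to 17551, had opposite signs in the other order, -0.48 ± 0.18 (adjusted p = 0.0305) and 0.68 ± 0.12 (adjusted p = 0.00208). The difference was -1.16 ± 0.20 (adjusted p = 0.00319), which did not pass without 3 of the 4 hybrid libraries in turn (adjusted p from 0.0892 to 0.11). At RPL8A, a protein of the large ribosomal subunit, on chromosome VIII from 36021 to 36405, the UWOPS05_217_3 allele held 598 and 764 CPM against 706 and 927, and the DBVPG1373 allele 1103 and 1353 against 695 and 739. The cis effects differed by -1.03 ± 0.21 (adjusted p = 0.0108). YIR016W differed by -2.37 ± 0.51 (adjusted p = 0.0197), which did not pass when any of 3 of the 4 hybrid libraries was left out, with adjusted p up to 0.376.

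A trans effect was taken as a parental log2 ratio that differs from the ratio of the alleles in the hybrid. The study called trans effects by a posterior interval for each NFR, a different criterion, and reported many more. Haploid reads were mapped to 1 genome and hybrid reads to both together, and the part of this step was not tested. In the UWOPS05_217_3 cross 2 NFRs were called in the whole list, 0.0572% of those tested, and both were subtelomeric (0.494% of the members). In both, CBS432 exceeded UWOPS05_217_3 among the haploids and did not exceed it between the alleles. At an unadjusted p under 0.05 there were 24 members (5.93%) and 125 others (4.04%), and with any 1 library left out between 4 and 6 members were called, these 2 among them each time. They were then 41.7% to 83.3% of all calls, as with 5 of 12 without CBS432 replicate 1, and so trans calls were not limited to the subtelomeres.

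The first was the NFR of ZRT1, the high-affinity zinc transporter, on chromosome VII from 20536 to 20815. Its level was 1087 and 1061 CPM in CBS432, 305 and 391 in UWOPS05_217_3 and 459 and 734 in DBVPG1373. In the UWOPS05_217_3-CBS432 hybrid the CBS432 allele held 177 and 102 and the UWOPS05_217_3 allele 211 and 253, so both alleles together gave 388 and 355, close to the UWOPS05_217_3 haploid and below CBS432. The haploid log2 ratio was -1.59 ± 0.34 (adjusted p = 0.00206), the allele ratio 0.78 ± 0.28 (adjusted p = 0.0285) and the trans effect -2.42 ± 0.38 (adjusted p = 0.0133). The second was the NFR of AQY2, a water channel, on chromosome XII from 36430 to 36682. CBS432 held 506 and 512 CPM and UWOPS05_217_3 107 and 127, while the alleles held 75.7 and 177 for CBS432 and 97.6 and 323 for UWOPS05_217_3. Both alleles together gave 173 and 499.6, so the hybrid replicates differed widely. The trans effect was -2.75 ± 0.38 (adjusted p = 0.00645).

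In the DBVPG1373 cross edgeR called no trans effect among the members or among all NFRs (0 of 3498, or 0%), although 22 members (5.43%) and 138 others (4.46%) had an unadjusted p under 0.05 and DESeq2 called 2 members. ZRT1 had a trans effect of -2.26 ± 0.33 there (adjusted p = 0.155) and AQY2 of -1.96 ± 0.33 (adjusted p = 0.279). These values are close in size to those of the UWOPS05_217_3 cross, but both crosses use the same CBS432 haploid libraries. The difference between the crosses was not tested. The median trans effect over all NFRs was -0.10 in the UWOPS05_217_3 cross and -0.16 in the DBVPG1373 cross, and TMM scaling moved it by 0.10 and 0.15.

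ZRT1 belongs with ADH4 and ZPS1 to the genes that the activator Zap1 induces when zinc is low, and all 3 have a subtelomeric NFR. At ZPS1, which encodes a cell surface protein, the NFR on chromosome XV from 34514 to 34625 held 368 and 298 CPM in CBS432, 91.4 and 68.6 in UWOPS05_217_3 and 62.7 and 51.1 in DBVPG1373. Both alleles together gave 85.1 and 87.8 in the UWOPS05_217_3-CBS432 hybrid and 61.8 and 49.9 in the DBVPG1373-CBS432 hybrid, below both CBS432 haploids. The haploid log2 difference was -2.04 ± 0.33 for UWOPS05_217_3 (adjusted p = 0.000177), the allele ratio 0.41 ± 0.46 (adjusted p = 0.565), and the trans effect -2.47 ± 0.46 did not pass (adjusted p = 0.0694). For ADH4, an alcohol dehydrogenase, on chromosome VII from 14971 to 15152, CBS432 held 139 and 116 CPM and UWOPS05_217_3 86.1 and 51.9. Neither the haploid difference of -0.88 ± 0.40 (adjusted p = 0.126) nor the trans effect of -0.73 ± 0.57 (adjusted p = 1) passed.

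**Figure D4:**
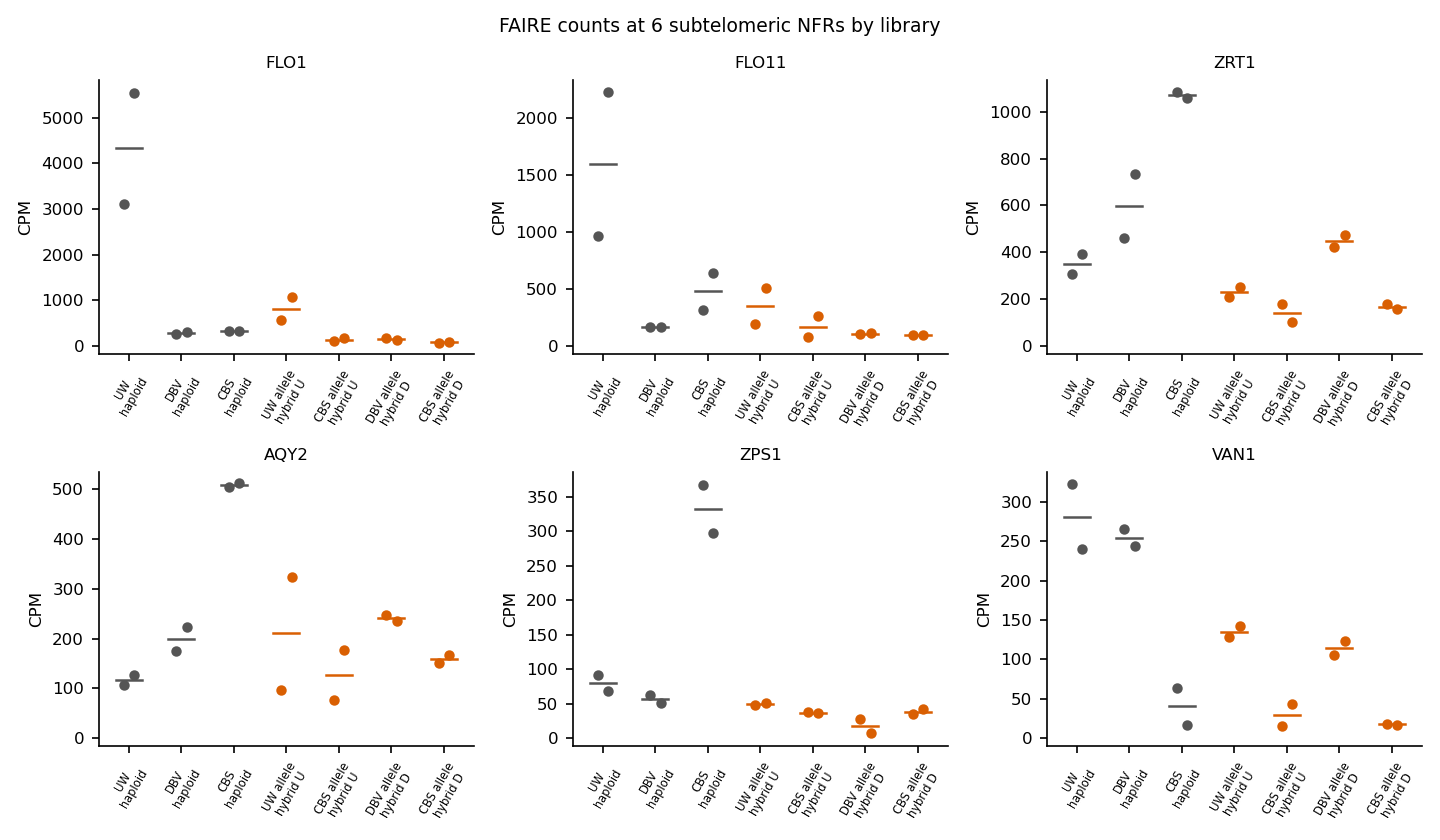
FAIRE CPM (y axis, from 0) at the NFRs of FLO1, FLO11, ZRT1, AQY2, ZPS1 and VAN1 by haploid strain (gray) and allele of the hybrids (orange), where U is the UWOPS05_217_3-CBS432 hybrid and D the DBVPG1373-CBS432 hybrid, with points for the 2 replicates and a line at their mean. At ZRT1, AQY2 and ZPS1 the CBS432 haploids are the highest of the haploid strains (1087 and 1061 CPM at ZRT1). At VAN1 both CBS432 haploids and alleles are low. An allele is scaled to the total of both alleles, so its height cannot be compared with that of a haploid.

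Taken by family, the 22 listed genes with a subtelomeric NFR share 21 NFRs. Between UWOPS05_217_3 and CBS432 haploids 4 were higher in UWOPS05_217_3 and 6 in CBS432, and between the alleles 6 and 2. In the DBVPG1373 comparisons 1 was higher in DBVPG1373 and 6 in CBS432 among haploids, and 4 and 5 between the alleles. In all, 10, 8, 7 and 9 of the 21 were called in this order, against 20.4%, 24.8%, 8.23% and 29.8% of all NFRs, with no test of these few against the rest. Their median log2 differences were -0.16, 0.40, -0.70 and -0.23 in this order, while over all NFRs the medians were about 0 between haploids and 0.09 between alleles. None of these calls changed sign with DESeq2, other scaling, the replicate block or a filter on low counts.

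Among the flocculin genes, FLO1 is described above. FLO11, a flocculin needed for invasive growth, has its NFR on chromosome IX from 393700 to 394131, with 962 and 2223 CPM in UWOPS05_217_3, 167 and 163 in DBVPG1373 and 316 and 639 in CBS432. It was higher in UWOPS05_217_3 than in CBS432 by 1.77 ± 0.45 (adjusted p = 0.00772) and lower in DBVPG1373 than in CBS432 by a log2 difference of -1.49 ± 0.39 (adjusted p = 0.0322). The allele ratios were 1.14 ± 0.25 (adjusted p = 0.000131) and 0.16 ± 0.25 (adjusted p = 0.662). Between UWOPS05_217_3 and DBVPG1373 themselves the log2 differences of 3.24 ± 0.53 for FLO11 and 3.90 ± 0.59 for FLO1 did not pass (adjusted p = 0.159 for both). FLO5 had log2 differences of -0.04 (adjusted p = 0.97) and -1.21 (adjusted p = 0.34) from CBS432 for UWOPS05_217_3 and DBVPG1373.

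Of 7 NFRs at iron and siderophore uptake genes, 2 were called in each haploid comparison, in opposite directions, where 20.4% and 8.23% of all NFRs were called. SIT1 was higher in both S. cerevisiae strains and ARN1, another siderophore transporter, was lower, by log2 differences of -2.11 (adjusted p = 0.00017) and -1.42 (adjusted p = 0.031). Among the rest, FRE4 was called only between the alleles of the UWOPS05_217_3-CBS432 hybrid (log2 ratio 1.49, adjusted p = 0.0061). FRE3 (-1.39, adjusted p = 0.023) and FIT3 (1.76, adjusted p = 0.013) were called only between those of the DBVPG1373-CBS432 hybrid, and whether the hybrids differed there was tested without a call (adjusted p from 0.244 to 0.967). Higher in CBS432 than in UWOPS05_217_3 haploids were the NFRs of PHO89, a sodium-dependent phosphate transporter (log2 difference -1.23, adjusted p = 0.00879), and HXT14 of the hexose transporter family (-1.15, adjusted p = 0.00782). So was that of AAD4, an aryl-alcohol dehydrogenase (-1.24, adjusted p = 0.0325). Between the alleles of the UWOPS05_217_3-CBS432 hybrid, PHO89 (log2 ratio -0.33, adjusted p = 0.527) and AAD4 (-1.03, adjusted p = 0.101) did not pass. Of the 2 hexose transporter NFRs, 1 was called there, higher on the CBS432 allele.

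RNA was examined for the 415 genes of the UWOPS05_217_3 cross with a subtelomeric NFR as the nearest NFR upstream. Between haploids 249 of them differed (60%, against 54.6% of all genes tested), 138 higher in UWOPS05_217_3 (33.3%, against 28.2%) and 111 in CBS432 (26.7%, against 26.4%). Between the alleles of the hybrid 288 differed (69.4%, against 68.6%), 151 toward UWOPS05_217_3 (36.4%, against 31.8%) and 137 toward CBS432 (33.0%, against 36.7%). The median absolute log2 difference was 0.41 for these genes and 0.35 for the others among haploids, and 0.34 and 0.29 between alleles.

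Differences in accessibility and RNA were nearly unrelated over these genes. Over 412 pairs of gene and NFR, the Pearson correlation of the haploid log2 differences was 0.123 and Spearman's rho was 0.0748. Over 410 pairs between the alleles they were 0.0473 and 0.0467. Of 55 pairs called in both measures among haploids 36 agreed in direction, and 38 of 71 between alleles. For the other pairs in the tables the shares were 184 of 337 and 234 of 516.

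**Figure D5:**
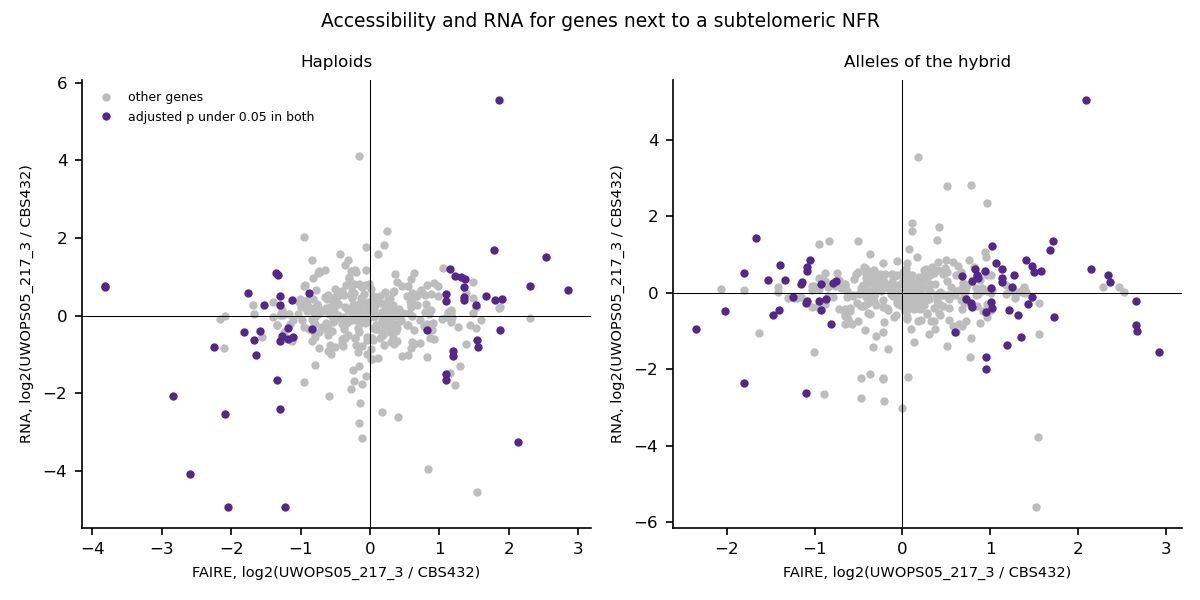
Log2 difference in RNA counts (y axis) against that in FAIRE counts at the nearest upstream NFR (x axis) for genes paired with a subtelomeric NFR, for UWOPS05_217_3 against CBS432 haploids (left) and for the alleles of their hybrid (right), where each point is 1 gene, purple where both measures had an adjusted p under 0.05, and NFRs with 3 or fewer counts in a group are not drawn. Of the purple points, 36 of 55 at left and 38 of 71 at right have equal signs.

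Single genes showed both kinds of relation. Counting by strand is not given in the sources used here, so reads of a gene and of an overlapping or antisense gene cannot be told apart. KTD1, a DUP240 gene for defense against a killer toxin, had 79.3 and 84.5 CPM of RNA in UWOPS05_217_3 and 1.34 and 2.00 in CBS432, an RNA log2 difference of 5.55 ± 0.20 (adjusted p = 2.52e-06). Its NFR was also more accessible in UWOPS05_217_3, by 1.86 (adjusted p = 0.00037), and both held between the alleles, with log2 ratios of 5.03 ± 0.17 for RNA (adjusted p = 6.96e-62) and 2.09 for FAIRE (adjusted p = 9.3e-10). SIT1 went the opposite way, with an NFR more accessible in UWOPS05_217_3 (2.14 ± 0.58, adjusted p = 0.0111) and RNA of 24.7 and 35.4 CPM against 149.9 and 424 in CBS432 (-3.27 ± 0.44, adjusted p = 0.00052). The SIT1 alleles showed the same opposition, 2.92 ± 0.68 for FAIRE (adjusted p = 0.000288) and -1.54 ± 0.08 for RNA (adjusted p = 3.47e-38).

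ZPS1 had 677 and 315 CPM of RNA in CBS432 and 16.4 in each UWOPS05_217_3 library, a log2 difference of -4.93 ± 0.33 (adjusted p = 2.54e-05). In the hybrid both alleles together gave 21.9 and 24.4, and their ratio was 0.59 ± 0.16 toward UWOPS05_217_3 (adjusted p = 0.000695). The RNA of ZPS1 was thus lower in each UWOPS05_217_3-CBS432 library than in either CBS432 haploid. The accessibility of its NFR was lower in every library of both hybrids than in either CBS432 haploid. PHO89 had 29.7 and 39.0 CPM of RNA in CBS432 and 1.21 and 1.04 in UWOPS05_217_3, a log2 difference of -4.95 ± 0.23 (adjusted p = 4.86e-06), and -1.43 ± 0.30 between the alleles (adjusted p = 1.2e-05).

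ACS1, an acetyl-CoA synthetase, and FET4, a low-affinity iron transporter, had higher RNA in UWOPS05_217_3 with no call at their NFRs. The RNA log2 differences were 4.12 ± 0.23 (adjusted p = 1.18e-05) and 2.19 ± 0.32 (adjusted p = 0.000799) among haploids, and 2.82 ± 0.32 (adjusted p = 9.92e-15) and 3.53 ± 0.14 (adjusted p = 7.04e-53) between alleles. YFR054C had the largest RNA excess of the CBS432 allele, a log2 ratio of -5.61 ± 0.15 (adjusted p = 3.18e-75), while its NFR had a log2 ratio of 1.52 that did not pass (adjusted p = 0.12). Among genes with a mean of at least 50 counts, GMC2, a meiotic gene of the synaptonemal complex, followed with -3.01 ± 0.50 (adjusted p = 3.7e-08), at no more than 7.45 CPM in any library, and YAT1, a carnitine acetyltransferase, with -2.83 ± 0.19 (adjusted p = 3.09e-30).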

How the data were processed

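The authors mapped reads with bwa, counted them with samtools per NFR or gene in each genome's own coordinates, left out indel sites, and deposited counts per library or allele with no normalization. The submitters' processing notes name CASAVA, BWA and the build sacCer3. One read can enter the counts at several sites, and levels of hybrid alleles depend on divergent sites. Positions are as deposited. Gene names follow the RefSeq R64 gene table, which matched 4597 of 4995 genes of the RNA tables. Distances on right arms start at the last listed feature, so 252 NFRs were on right and 153 on left arms.

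The 8 RNA tables of the DBVPG1373 cross were not used, since 1890 of their 5066 genes held the same number in all 8.

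Tests used R 4.3.3 with edgeR 4.0.16 (quasi-likelihood F-test) on all 3498 NFRs, or on genes averaging 10 counts or more, with Benjamini-Hochberg adjustment. Haploids used TMM scaling. Allele fits blocked on the library and gave both alleles the same library size. Trans effects were the interaction of strain and ploidy, with replicates as blocks, after the study's model. DESeq2 1.42.0 was an alternative. The tests were tried on simulated data. Other steps used Python 3.11.15, pandas 2.3.3, scipy 1.17.1 and matplotlib 3.10.9. The SE is the log2 ratio divided by the square root of F. A group at 0 was given a limit of 3 counts, as if counts were independent.

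Named NFRs passed the threshold of 0.05, had a mean count of at least 50 and the same direction in every replicate, and were the 3 largest per direction (2 for trans effects and differences between hybrids). The zinc genes and flocculins were named by identity. The gene lists, the region limit and the members were chosen with earlier results of these data known. Values for AQY3, RPL8A, RPS12, the RNA of SIT1, ZUO1, OPT1, ARN1, FRE3, FRE4, FIT3, FLO5, PHO89, HXT14, AAD4 and the chromosome XIV NFRs fall outside the rule and were chosen after their values were seen.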

Additional observations from a re-analysis of the deposited data

Results flagged for a closer look

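Results are listed here where an effect differed between crosses or between parents and hybrid by a test of the difference itself, edgeR's quasi-likelihood test with adjustment over all NFRs. The cis effect differed between the hybrids at the NFRs of MAL13 (adjusted p = 1.49e-07), YJL218W (adjusted p = 1.78e-06) and between THI5 and AGP3 (adjusted p = 0.000113), all at 0 counts in DBVPG1373. It also differed at AQY3 (adjusted p = 0.00118), YHL041W (adjusted p = 0.00319), FLO1 (adjusted p = 0.00723), RPL8A (adjusted p = 0.0108), RPS12 (adjusted p = 0.017) and YIR016W (adjusted p = 0.0197). The parental ratio differed from the allele ratio in the UWOPS05_217_3 cross at the NFRs of AQY2 (adjusted p = 0.00645) and ZRT1 (adjusted p = 0.0133). What sets these differences was not tested.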

How the results depend on the processing

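Shares are of the 405 members called. With 1 library left out, the share ran from 13.6% to 17.0% between UWOPS05_217_3 and CBS432, 3.95% to 20.0% between DBVPG1373 and CBS432, 1.23% to 4.69% between UWOPS05_217_3 and DBVPG1373, 0.494% to 1.98% for the difference between hybrids, 0.988% to 1.48% for trans effects in the UWOPS05_217_3 cross and 0% to 0.247% in the DBVPG1373 cross. Allele fits of 1 library gave no test and were not run. DESeq2 gave 2.47% between UWOPS05_217_3 and DBVPG1373 and 0.494% for trans effects in the DBVPG1373 cross, and column totals gave 1.23% in the former. Within 25000 bp of an end the shares were 1.92% between UWOPS05_217_3 and DBVPG1373 and 3.85% for the difference between hybrids. Replicate numbers could not be shown to pair haploid libraries, with a correlation of same-numbered deviations of 0.165 to 0.483 over only 2 pairs. With the replicate block the share was 31.1%, 23.5% and 5.93% in the 3 haploid comparisons, in the order above. The causes of these shifts were not tested. Of 270 alternatives for 45 named results, 258 stayed on the same side of the threshold, 12 no longer passed and 0 changed direction. Low counts limit short NFRs such as those of AQY3 and GPI16.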
